A study of Homo sapiens with 18 samples.

Results

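The interaction between XBP1 knockdown and tunicamycin was measured as the log2 response to tunicamycin in XBP1 knockdown cells minus the log2 response in control cells. It used 12 of the 18 RNA-seq libraries of the series, 3 in each of 4 groups, and one fit over these groups. The other 6 libraries, from CARM1 knockout cells with vehicle or tunicamycin, stayed out of this fit and serve below only for comparison. An interaction below 0 means that the response of a gene lay lower in the knockdown, and an interaction above 0 that it lay higher. All 12 libraries came from A1847, a human line of high-grade serous ovarian cancer that expresses CARM1. The groups were control cells with vehicle, control cells with tunicamycin, XBP1 knockdown cells with vehicle and XBP1 knockdown cells with tunicamycin, and treatment was with 5 µg/ml tunicamycin for 8 h. Control cells are wild type by their labels. The paper lists a scramble control hairpin, but whether these cells carried it or went through the same puromycin selection was not stated. The knockdown rests on the only lentiviral hairpin against XBP1 that the paper lists. Its target site is not given there, and the reduction of spliced and unspliced transcripts was not told apart here. Effects of this hairpin on other transcripts cannot be told apart from the loss of XBP1. Whether the knockdown libraries came from a single selected population was not stated.

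Tunicamycin blocks the first step of N-glycan assembly, and glycoproteins that cannot fold then accumulate in the endoplasmic reticulum (ER). The ER senses this through IRE1α, PERK and ATF6. IRE1α splices XBP1 mRNA, and the spliced form encodes XBP1s, a bZIP factor known for switching on genes of ER import, folding, degradation and vesicle transport. PERK acts through the translation factor eIF2α and the transcription factor ATF4, and ATF6 is cut in the Golgi to release a factor that shares target sites with XBP1s.

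The targeted gene behaved as labelled. XBP1, at chr22:29190543-29196585 on GRCh37, was at 53.2, 44.9 and 45.0 CPM (its read count after division by library size) in control cells with vehicle and at 26.7, 25.1 and 27.7 CPM in knockdown cells with vehicle. With tunicamycin these values were 160.3, 154.6 and 155.6 CPM in control cells and 71.9, 77.0 and 75.4 CPM in knockdown cells. The genotypes did not overlap under either treatment, and XBP1 mRNA was still induced 2.82-fold in the knockdown against 3.29-fold in control cells. Its interaction of -0.22 ± 0.10 (log2, SE; 95% interval -0.43 to -0.02) did not pass the threshold (adjusted p = 0.286, edgeR's quasi-likelihood test with Benjamini-Hochberg adjustment, as for every adjusted p given here unless another tool is named). CARM1 mRNA, the gene altered in the other arm of the series, had an interaction of 0.12 ± 0.07 (edgeR adjusted p = 0.42).

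Library totals were 11252147 to 13858603 counts, and 15665 of the 57736 genes in the table passed the filter on low counts. Markers of ovarian epithelial cancer were checked in the 12 libraries: PAX8 and WT1 had 0 to 2 counts, MUC16 had 0, CDH1 had 0 to 6 and EPCAM had 22 to 52, while KRT18 reached 113 to 436 CPM. KRT8 reached 18.6 to 75.3 CPM, and KRT7 and KRT19 had at most 13 and 44 counts. Among fibroblast markers COL1A2 reached 598 to 898 CPM, COL3A1 145 to 236 CPM and THY1 19.4 to 54.9 CPM. COL1A1 was at 4.67 to 17.9 CPM, and DCN and LUM reached at most 1.39 and 1.11 CPM. The markers were thus mixed, and they do not settle the identity of the cells. Leukocyte and endothelial markers had at most 24 counts in any library.

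The interaction was below 0 in 292 genes (1.86% of those tested) and above 0 in 63 (0.402%) at a false discovery rate of 5%. Over all tested genes the median interaction was -0.01 and 50.97% of the terms were negative, values that the scaling between libraries (TMM) centres near 0 and that cannot show whether all genes shifted together. The number below 0 fell to 183 without replicate 3 of the control cells with tunicamycin, and to 186 and 181 without replicates 2 and 3 of the knockdown cells with tunicamycin. The number above 0 was more dependent on single libraries. It was 33, 29 and 100 without control vehicle replicates 1, 2 and 3, and 106 and 31 without control tunicamycin replicates 2 and 3. It was 24 and 36 without knockdown vehicle replicates 2 and 3, and 30 without knockdown tunicamycin replicate 2 as without replicate 3. Of the 292 genes, 158 were called in each of the 12 fits that leave out one library, and of the 63 genes, 15 were. In bulk libraries a smaller share of responding cells and a smaller response in each cell cannot be told apart.

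**Figure D1:**
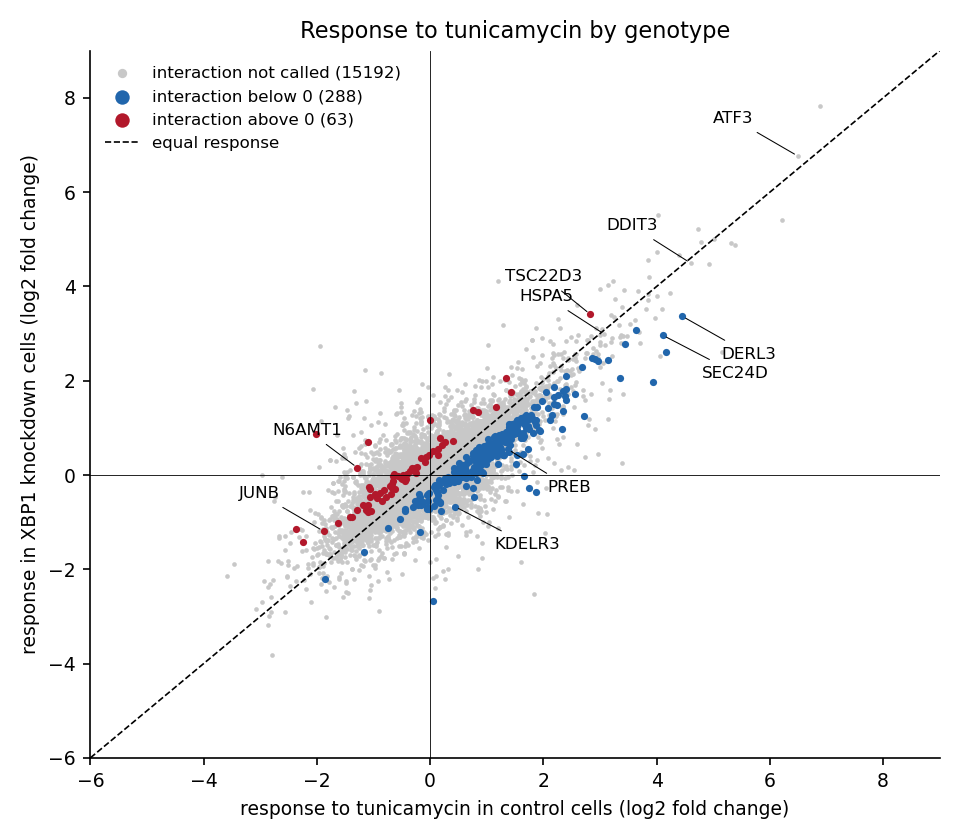
Response to tunicamycin in XBP1 knockdown cells (vertical axis, log2 fold change) against the response in control cells (horizontal axis, log2 fold change), 1 point per gene, without genes that had a group at 3 counts or fewer in every library. The 288 genes with an interaction below 0 (blue) lie under the dashed line of equal response, most of them to the right where control cells rose, and the 63 above 0 (red) lie over it, most of them to the left.

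To give each called gene a direction, the mean response of both genotypes was used, a contrast that is independent of the interaction in a balanced design. It was above 0 in 4511 genes (28.8%) and below 0 in 4247 (27.1%). A smaller rise in the knockdown was the main pattern, with 241 genes (1.54%). A smaller fall was seen in 40 genes (0.255%), a larger fall in 35 (0.223%) and a larger rise in 16 (0.102%), and 23 called genes had no called mean response.

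The size of the loss was moderate. Leaving out genes with a group at the counting floor, the genes with a smaller rise had a median response of 1.16 in control cells and 0.58 in knockdown cells (log2). The knockdown response was taken as a share of the control response gene by gene (log2 scale), and the median share was 51.8%. These genes were called by the same interaction, so that the loss may be overstated. Their interactions ran from -2.24 to -0.25 with a median of -0.54. In 21 of these 240 genes the responses of the 2 genotypes had opposite signs. The genes with a smaller fall showed the mirror image, with medians of -0.83 in control cells and -0.31 in knockdown cells. Genes with a larger fall hardly moved in control cells (median response -0.06) and fell in the knockdown (median -0.59).

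For most called genes the difference between genotypes was larger under tunicamycin than under vehicle. This held for 222 of 240 genes with a smaller rise, 35 of 40 with a smaller fall, 30 of 35 with a larger fall and 13 of 16 with a larger rise. APC2 (-0.88 with vehicle and -0.16 with tunicamycin), CDC42EP3 (-0.93 and -0.27) and ALDH1L2 (0.45 and -0.22) were among the exceptions, with most of the interaction in the vehicle arm. For the genes with a smaller rise the median of knockdown minus control was 0.06 with vehicle and -0.48 with tunicamycin, and 239 of 240 were lower in the knockdown with tunicamycin against 81 with vehicle. For the genes with a smaller fall these medians were -0.03 and 0.47. Both differences enter the interaction, so that these values describe from which arm it came and are no further test.

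**Figure D2:**
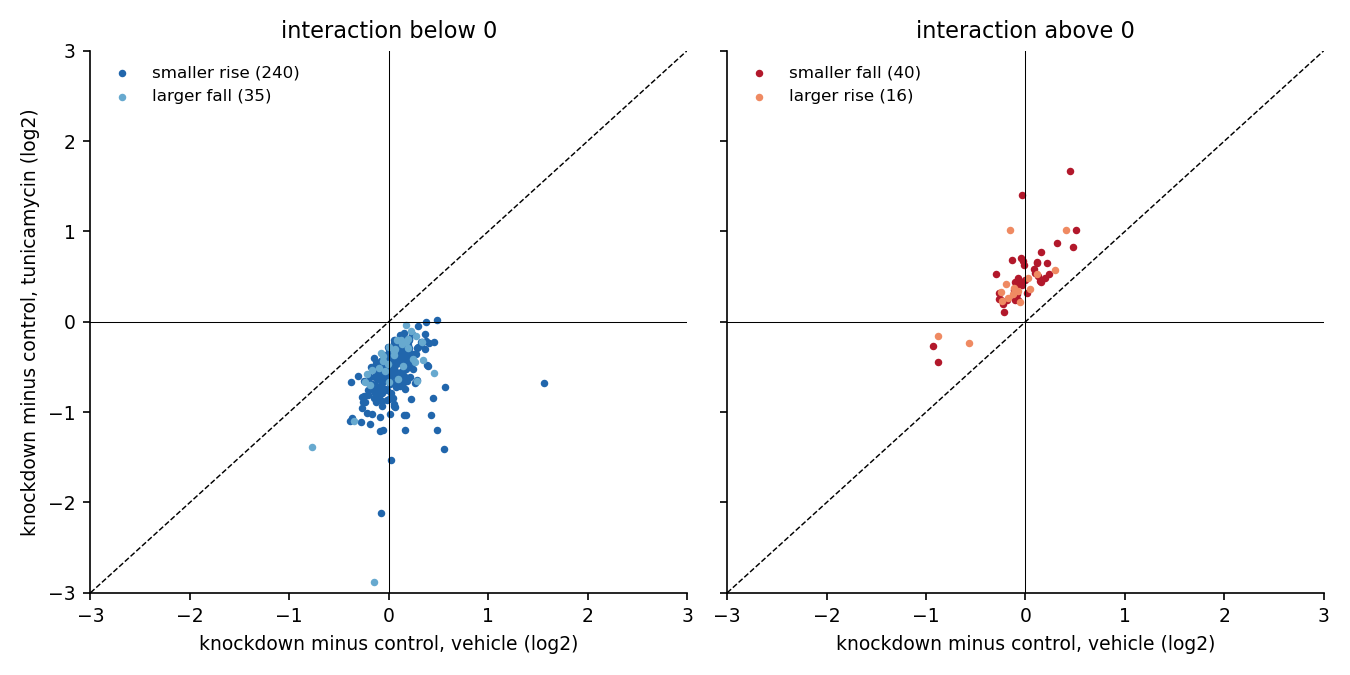
Knockdown minus control with vehicle (horizontal axis, log2) and with tunicamycin (vertical axis, log2) for the called genes of each class, 1 point per gene, without genes with a group at the counting floor. The dashed line marks an equal difference under both treatments, and the points spread along the vertical axis with medians of -0.48 for a smaller rise and 0.47 for a smaller fall.

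By function, many of the calls below 0 lay in the secretory pathway. Over the 11 lists of ER and early Golgi genes, 76 of 275 tested members (27.6%) were below 0 and 1 was above 0, beside 1.86% and 0.402% over all genes, and the median interaction was -0.22. Over the other 23 function lists, 21 of 600 further members (3.5%) were below 0 and 5 above 0. The remaining 195 genes below 0 were in no list. These lists were drawn up with earlier results of the series known, and their counts are descriptions.

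**Figure D3:**
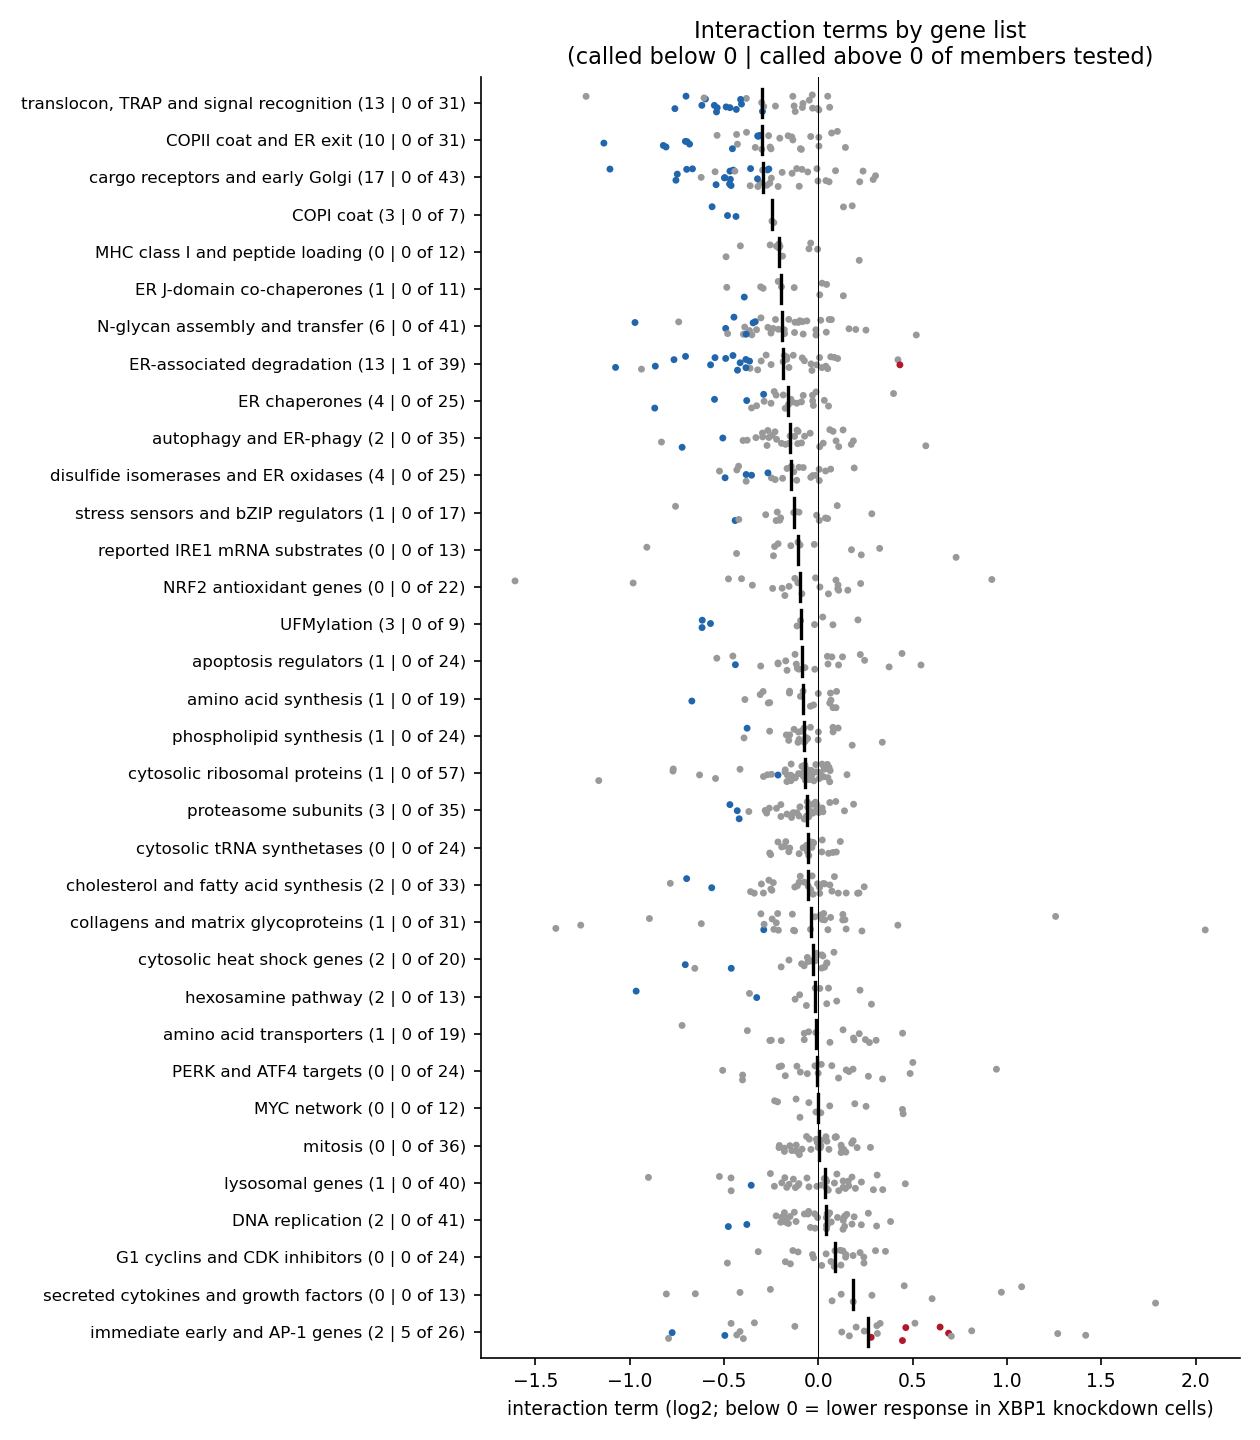
Interaction terms (horizontal axis, log2) of the tested members of 34 gene lists, 1 point per gene, with the median of each list as a black bar and called genes in blue (below 0) or red (above 0). SLC7A8, NUPR1 and FGF21, each with a group at the counting floor, have no point but count in their lists' medians. Lists are ordered by median, from -0.30 for the translocon, COPII and early Golgi lists to 0.26 for immediate early genes.

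COPII vesicles carry cargo out of the ER, and 10 of 31 tested genes of the coat and of ER exit (32.3%, beside 1.86% over all genes) had an interaction below 0. PREB, the exchange factor that loads the COPII GTPase SAR1 at the ER membrane, had the smallest p-value of all genes. PREB, at chr2:27353624-27357534, rose from 100.3, 103.3 and 106.5 CPM to 263.1, 263.2 and 274.6 CPM in control cells. In the knockdown it rose from 112.1, 115.8 and 114.6 CPM to 162.8, 165.2 and 172.5 CPM. The knockdown libraries lay above all control libraries with vehicle and below all of them with tunicamycin. The response was 2.58-fold in control and 1.46-fold in knockdown cells, an interaction of -0.82 ± 0.07 (edgeR adjusted p = 3.64e-06).

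SEC24D, which selects cargo in the inner COPII coat, gave the largest interaction of the list. SEC24D, at chr4:119643978-119759838, stood at 6.43, 5.74 and 6.87 CPM in control and 5.35, 5.19 and 7.76 CPM in knockdown cells with vehicle. With tunicamycin it reached 114.4, 106.0 and 108.2 CPM in control and 47.1, 47.5 and 49.1 CPM in knockdown cells. The vehicle libraries overlapped and the tunicamycin libraries did not, and the response was 17.2-fold in control against 7.82-fold in knockdown cells (interaction -1.14 ± 0.16, edgeR adjusted p = 0.000649). SEC31A, a subunit of the outer coat, responded 3.66-fold and 2.09-fold (interaction -0.81 ± 0.08, edgeR adjusted p = 1.28e-05), and SEC23B, the partner of SEC24 proteins, 5.2-fold and 3.19-fold (-0.70 ± 0.08, edgeR adjusted p = 7.08e-05).

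None of the 31 was above 0 (0 also with DESeq2, and 0 at an unadjusted p under 0.05 in edgeR), and the median interaction was -0.30. The others below 0 were SEC13, the SNAREs BET1 and GOSR2, the tether USO1, the GTPase RAB1A and TRAPPC4. BET1, USO1, RAB1A and TRAPPC4 lost the call in some fits without one library. The paralogs SEC24A (-0.43, interval -0.84 to -0.02), SEC24B (0.14, -0.12 to 0.41) and SEC24C (-0.16, -0.45 to 0.13) were not called, and their differences from SEC24D were not tested. The count below 0 was 6 without control tunicamycin replicate 3 and without knockdown tunicamycin replicate 2 or 3.

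Of 31 tested genes of translocation into the ER (the translocon, the TRAP complex and signal recognition), 13 were below 0 (41.9%) and 0 above (0 with DESeq2, 0 at an unadjusted p under 0.05), and the median response was 0.73 in control and 0.36 in knockdown cells (log2). The count ranged from 11 to 14 over the fits without one library. TRAP is a membrane complex that assists the insertion of nascent chains at the SEC61 channel, and 3 of its 4 subunits were called. SSR1, at chr6:7268539-7347679, stood at 135.7, 143.6 and 136.0 CPM in control and at 142.9, 135.2 and 141.2 CPM in knockdown cells with vehicle. With tunicamycin it stood at 348.2, 364.4 and 368.3 CPM and at 217.8, 231.1 and 222.2 CPM, without overlap. The responses were 2.6-fold and 1.6-fold for SSR1 (interaction -0.70 ± 0.07, edgeR adjusted p = 1.12e-05), 2.52-fold and 1.64-fold for SSR2 and 2.54-fold and 1.68-fold for SSR3, so that the 3 subunits moved by nearly the same amount in both genotypes. SSR4 had the lowest term of the list, -1.23, but its libraries were spread widely, from 30.6 to 73.1 CPM in knockdown cells with vehicle, and it was not called.

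The signal recognition particle binds signal peptides as they leave the ribosome, and its receptor docks the complex at the ER. Of 8 tested subunits of particle and receptor, 6 were below 0 (SRP19, SRP54, SRP68, SRP72, SRPRA and SRPRB). SRPRA alone among them lost the call in some fits without one library. SRP19 responded 3.34-fold in control and 1.97-fold in knockdown cells (interaction -0.76 ± 0.09, edgeR adjusted p = 7.08e-05). SRP9 and SRP14, which form the part of the particle that slows elongation, had terms of -0.05 and 0.06, with responses of 0.03 and -0.26 (log2) in control cells. Among the channel subunits SEC61B was called and SEC61A1 was not (-0.30).

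Of 43 tested cargo receptors and early Golgi genes, 17 were below 0 (39.5%, beside 1.86% over all genes), with a median of -0.30. None was above 0 (0 with DESeq2, 1 at an unadjusted p under 0.05). The count below 0 ranged from 11, without knockdown tunicamycin replicate 3, to 18. Calls lost in some fits without one library included those of ARF1 and the golgin GOLGA4. The called genes included LMAN1 and MCFD2, the receptor pair that carries coagulation factors out of the ER, the KDEL receptors KDELR2 and KDELR3, which return escaped chaperones, the GTPases ARF1 and ARF4, and 4 of 5 golgins, long tethers of the Golgi. GOLGB1, the golgin giantin, responded 3.03-fold in control and 1.8-fold in knockdown cells (interaction -0.75 ± 0.09, edgeR adjusted p = 0.000198). KDELR2 responded 1.76-fold and 1.21-fold (-0.54 ± 0.07, edgeR adjusted p = 0.000255).

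KDELR3, at chr22:38864083-38879452, moved in opposite directions. It stood at 11.7, 9.88 and 9.16 CPM in control cells with vehicle and at 11.7, 15.03 and 14.7 CPM with tunicamycin. In the knockdown it fell from 10.7, 8.16 and 9.45 CPM to 5.95, 5.32 and 6.49 CPM, below every other library (interaction -1.10 ± 0.21, edgeR adjusted p = 0.00608). The retrograde COPI coat followed, with COPA, COPB1 and COPB2 of 7 tested subunits below 0 (42.9%, beside 1.86% over all genes). None was above 0 (0 with DESeq2, 0 at an unadjusted p under 0.05). COPB2 responded 2.09-fold in control and 1.42-fold in knockdown cells (interaction -0.56 ± 0.08, edgeR adjusted p = 0.000332). These 3 calls held in each fit without one library.

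Of 39 tested genes of ER-associated degradation, 13 were below 0 (33.3%, beside 1.86% over all genes). This pathway draws misfolded proteins back to the cytosol and the proteasome. TMEM129, an E3 ligase of the pathway, was above 0 (0.43 ± 0.11, edgeR adjusted p = 0.0469), a call it lost in 7 of 12 fits without one library. The median interaction was -0.19, and the count below 0 was 9 to 14 over the fits without one library. The reduced genes covered successive steps. For substrate recognition, ERLEC1, a lectin of misfolded glycoproteins at chr2:54014146-54060175, stood at 60.7, 63.4 and 57.0 CPM in control and 58.9, 62.5 and 60.3 CPM in knockdown cells with vehicle. With tunicamycin it reached 273.2, 257.9 and 269.5 CPM in control but only 150.7, 144.3 and 146.2 CPM in knockdown cells. The vehicle libraries overlapped and the tunicamycin libraries stood well apart (4.42-fold against 2.43-fold, interaction -0.86 ± 0.07, edgeR adjusted p = 5.18e-06).

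The mannosidases EDEM1 and EDEM3, which mark glycoproteins for disposal, were called, and EDEM2 (-0.94) was not. EDEM1, EDEM3 and SYVN1, named below, lost the call in some fits without one library. The retrotranslocation genes DERL1 and DERL3 were called, and DERL2 (-0.36) was not. DERL3 was at 4.90, 5.28 and 4.51 CPM in control and 5.20, 6.08 and 5.79 CPM in knockdown cells with vehicle. It rose to 96.7, 108.7 and 114.9 CPM and to 61.5, 57.3 and 58.2 CPM, a response of 21.8-fold against 10.3-fold (interaction -1.08 ± 0.15, edgeR adjusted p = 0.000491). The ligase SYVN1 and its partner SEL1L were below 0 by 0.45 and 0.55 on the log2 scale, and so was VCP, the ATPase that extracts substrates, at 2.42-fold against 1.81-fold (edgeR adjusted p = 0.00109). HERPUD1, which responded more than 3 log2 units in both genotypes, had a term of -0.32 and was not called.

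Of 25 tested ER chaperones 4 were below 0 (16%, beside 1.86% over all genes) and 0 above (0 with DESeq2, 0 at an unadjusted p under 0.05), with a median response of 1.12 in control and 0.98 in knockdown cells (log2) and a median interaction of -0.16. The terms of 22 of the 25 were negative, and 10 were below 0 at an unadjusted p under 0.05. The 4 called were FKBP14, a prolyl isomerase of collagens (3.12-fold against 1.71-fold, interaction -0.87 ± 0.08, edgeR adjusted p = 1.28e-05), CRELD2 (7.79-fold against 5.32-fold), SDF2L1 and NUCB2. FKBP14 and CRELD2 held in each fit without one library, and without one library the count was 2 to 4. SDF2L1 (interaction -0.38 ± 0.09, edgeR adjusted p = 0.0325) differed from the others in its levels, since its tunicamycin libraries overlapped (960.5, 1186 and 1125 CPM in control, 1024, 1123 and 1117 CPM in knockdown cells) while its vehicle libraries were higher in the knockdown (185.3 to 206.1 CPM against 150.2 to 150.6 CPM).

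HSPA5, the major ER chaperone BiP at chr9:127997132-128003661, stood at 1333, 1355 and 1290 CPM in control and 1091, 1059 and 1062 CPM in knockdown cells with vehicle. With tunicamycin it stood at 11330, 10990 and 11240 CPM and at 8305, 8616 and 8551 CPM. It was lower in the knockdown under both treatments, without overlap, and its response was 8.44-fold against 7.93-fold (interaction -0.09 ± 0.04, interval -0.18 to 0.00, edgeR adjusted p = 0.372). The interval reaches down to a loss of 0.18 log2 units, beside a control response of 3.08. DNAJB9, the BiP co-chaperone ERdj4 and a widely used XBP1s target, was at 6.92, 8.73 and 7.50 CPM in control and 6.61, 4.89 and 6.66 CPM in knockdown cells with vehicle. It rose to 108.6, 104.6 and 113.0 CPM and to 70.8, 65.2 and 72.9 CPM, or 14.1-fold against 11.5-fold. The genotypes did not overlap under either treatment, and the interaction of -0.29 ± 0.15 (interval -0.61 to 0.03) was not called (edgeR adjusted p = 0.391).

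Among the 11 tested J-domain proteins of the ER only DNAJC3, the PERK inhibitor p58IPK, was below 0 (9.09%, beside 1.86% over all genes). It responded 6.44-fold against 4.91-fold (interaction -0.39 ± 0.09, edgeR adjusted p = 0.0313) and lost the call in 9 of the 12 fits without one library. Of 25 tested disulfide isomerases and oxidases 4 were below 0 (16%) and 0 above (0 with DESeq2, 0 at an unadjusted p under 0.05): P4HB, ERP44, TXNDC12 and TXNDC15. P4HB, the founding disulfide isomerase, responded 2.72-fold and 2.13-fold (-0.35 ± 0.08, edgeR adjusted p = 0.0153, up to 0.0752 without one library). The isomerases PDIA3, PDIA4 and PDIA6 had terms of -0.10, -0.11 and -0.03. This list was sensitive to single libraries, with 1 call left without control tunicamycin replicate 3 or knockdown tunicamycin replicate 2 or 3, and DESeq2 called 7.

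**Figure D4:**
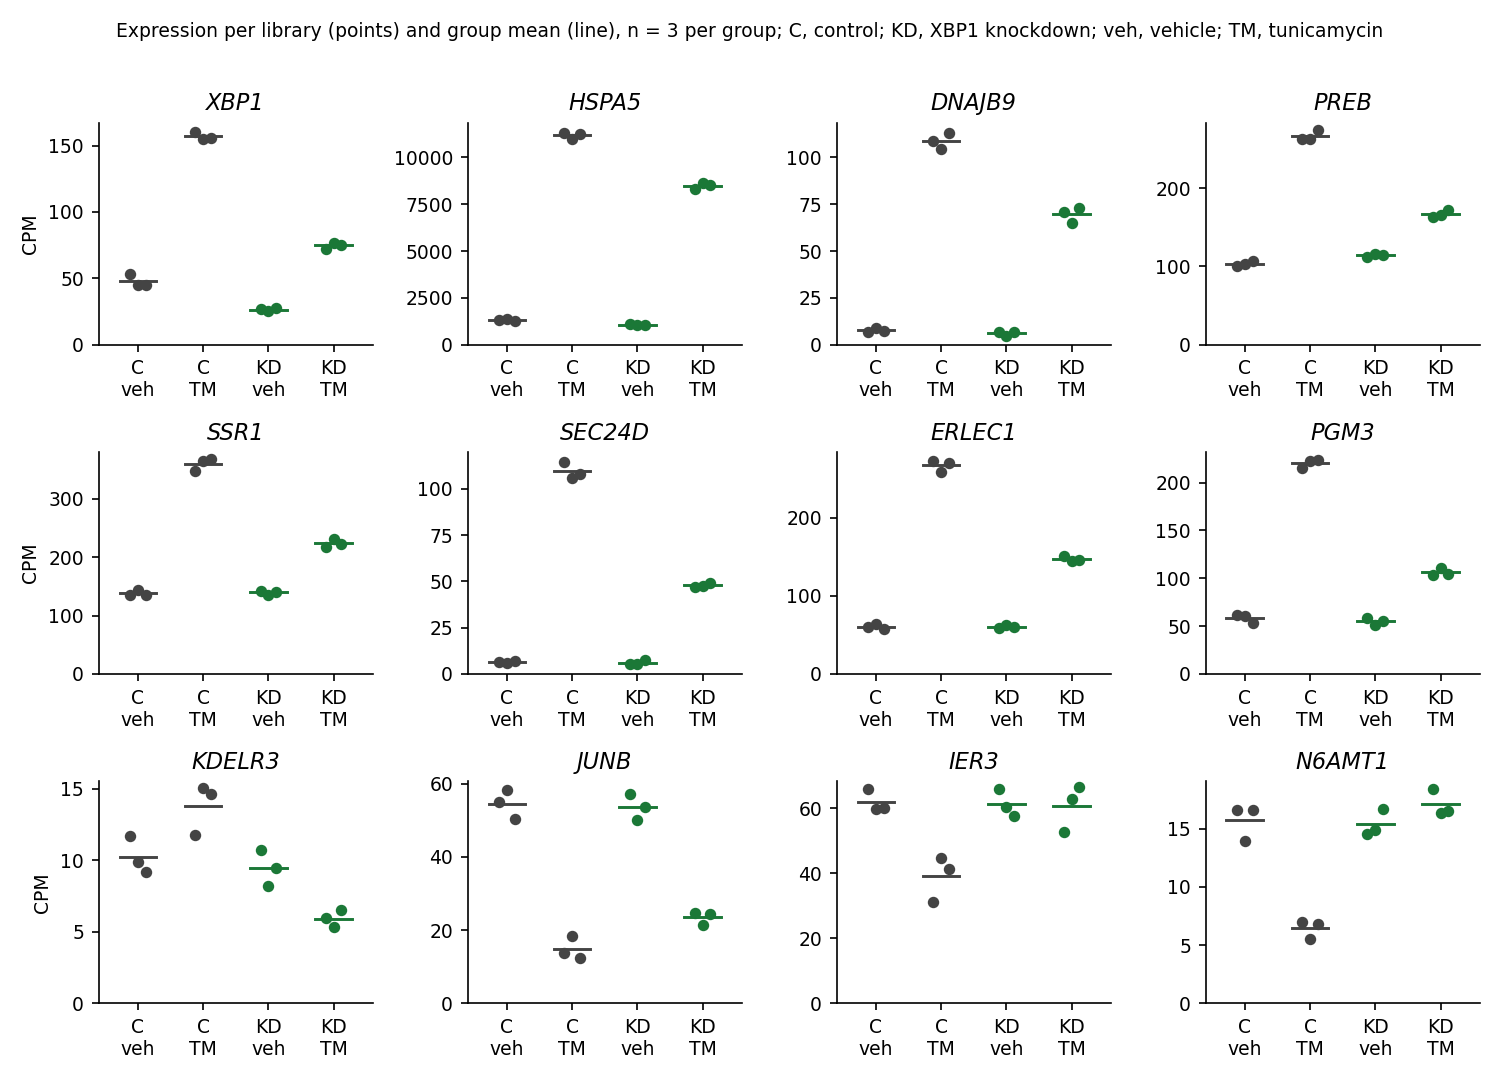
Expression of 12 genes in each library (points, CPM on a linear axis from 0) with group means (lines), 3 libraries per group. For PREB, SSR1, SEC24D, ERLEC1 and PGM3 the tunicamycin libraries of control and knockdown cells separate and the vehicle libraries lie at similar levels, whereas XBP1 and HSPA5 are lower in the knockdown under both treatments.

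Tunicamycin inhibits N-glycan assembly and transfer at its first enzyme DPAGT1. Of 41 tested genes of this pathway, 6 were below 0 (14.6%, beside 1.86% over all genes). None was above 0 (0 with DESeq2, 1 at an unadjusted p under 0.05). MOGS, the glucosidase that starts glycan trimming, stood at 32.1, 32.5 and 34.6 CPM in control and 35.7, 35.7 and 32.1 CPM in knockdown cells with vehicle. It rose to 77.6, 70.9 and 79.6 CPM in control and to 41.8, 41.9 and 37.4 CPM in knockdown cells, 2.3-fold against 1.17-fold (interaction -0.97 ± 0.10, edgeR adjusted p = 4.74e-05). The others were ALG2 and 4 subunits of the oligosaccharyltransferase (DAD1, MAGT1, OSTC and RPN2) of 11 tested. DAD1, MAGT1 and RPN2 lost the call in some fits without one library. The enzyme that tunicamycin blocks and the catalytic subunits of the transferase were not called. The terms were -0.16 and 0.06 for the catalytic subunits STT3A and STT3B and -0.37 for DPAGT1. The count was 3 without control tunicamycin replicate 3 or knockdown tunicamycin replicate 2 or 3.

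The hexosamine pathway makes the sugar donor UDP-GlcNAc. Of its 13 tested genes PGM3 and GFPT1 were below 0 (15.4%, beside 1.86% over all genes). None was above 0 (0 with DESeq2, 0 at an unadjusted p under 0.05). PGM3, at chr6:83857043-83903655, was at 61.8, 60.2 and 52.9 CPM in control and 58.2, 51.1 and 55.4 CPM in knockdown cells with vehicle. It rose to 215.2, 222.3 and 223.3 CPM and to 103.9, 111.0 and 104.2 CPM, 3.78-fold against 1.94-fold without overlap (interaction -0.97 ± 0.09, edgeR adjusted p = 9.95e-06). GFPT1, the rate-limiting enzyme, changed less (4.54-fold against 3.62-fold, edgeR adjusted p = 0.0386) and lost the call in 11 of 12 fits without one library. UFMylation is a ubiquitin-like modification of ER-bound ribosomes, and 3 of its 9 tested genes were below 0 (33.3%, beside 1.86% over all genes). The modifier UFM1 (interaction -0.62) and its ligase UFL1 (-0.57) were among them, in each fit without one library. None was above 0 (0 with DESeq2, 0 at an unadjusted p under 0.05).

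The 15 lowest called terms of well expressed genes (mean log2 CPM of 3 or more) included further genes of the Golgi and ER that no list held. GOLPH3L, a Golgi coat protein, responded 3.83-fold against 1.9-fold (interaction -1.01 ± 0.09, edgeR adjusted p = 9.9e-06). MGAT2, an enzyme of complex N-glycan synthesis, responded 2.9-fold against 1.34-fold (-1.11 ± 0.16, edgeR adjusted p = 0.000742), and WFS1, the ER membrane protein wolframin, 4.33-fold against 2.25-fold (-0.94 ± 0.14, edgeR adjusted p = 0.000693). CHPF2, a chondroitin polymerizing factor, rose 1.69-fold in control cells and was at 0.826-fold in the knockdown (-1.04 ± 0.18, edgeR adjusted p = 0.003). FBXO16 (-1.29), GLRX (-1.28), B9D1 (-1.20), DEDD2 (-0.93) and DAP (-0.91) were the others with a gene symbol, and ENSG00000185641, a processed pseudogene (-1.02), shares sequence with its parent gene, is uncertain and lost its call in 9 of 12 fits without one library. SLC7A8, an amino acid transporter, had the lowest term among list members but rests on few counts: 2, 2 and 2 in control cells with vehicle, 13, 14 and 20 with tunicamycin, and 8, 4 and 5 against 5, 4 and 1 in the knockdown.

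Promoters were compared as a description, with no test. RefSeq promoters on GRCh38.p14, from 250 bases before to 50 after the gene start, were found for 10765 of the 15665 tested genes, for 233 of the 292 below 0 and for 49 of the 63 above 0. The UPR element TGACGTGG, a site bound by XBP1s and ATF6, was in 6.44% of the promoters of genes below 0, in 0.938% of all, in 1.39% of genes that rose without a called interaction and in 0% of those above 0. Its core ACGTG was in 47.2%, 26.7%, 29.7% and 26.5% of them. The CCACG end of the ER stress element was in 64.4%, 49.7%, 51.3% and 46.9%, and the full element, CCAAT and CCACG with 9 bases between them, in 2 of 233 promoters of genes below 0 (0.858%), in 0.13% of all, in 0.34% of genes that rose without a called interaction and in 0% of those above 0. In the 20 promoters found for targets of PERK and ATF4, CCACG was in 70%, ACGTG in 15%, the UPR element in 0% and the ATF4-type element in 20%. The cyclic AMP element TGACGTCA was at similar shares (3.43% and 3.27%), as was the ATF4-type element TGATGNAAN (1.72% and 1.76%). All were searched on both strands, and TGACGTGG contains both ACGTG and, on the other strand, CCACG. Median GC content was 65.7% in promoters of genes below 0 and 65.3% in all.

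**Figure D5:**
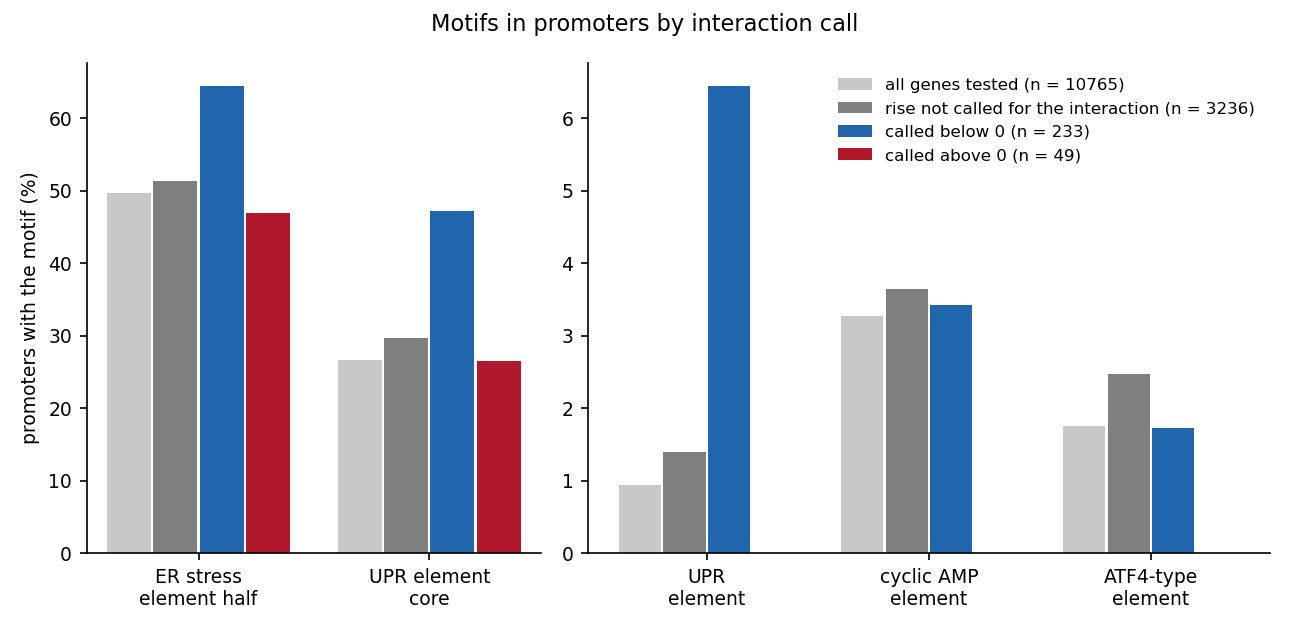
Share of promoters with each motif (vertical axis, percent, from 0) among all tested genes, genes that rose without a called interaction, genes with an interaction below 0 and genes with an interaction above 0. The bars of genes below 0 stand highest for the UPR element (6.44%) and its core (47.2%), and the cyclic AMP and ATF4-type elements show no such excess over all genes.

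The 200 bases before the start are shown for PREB, the gene with the smallest p-value, for the 3 genes with the smallest p-values below 0 that hold a UPR element there (SRP19, LARP1B and SMIM14), for the 3 next that hold its core (PGM3, SSR1 and SEC31A), and for DNAJB9 and HSPA5, which were not called. They are from RefSeq on GRCh38.p14 in the direction of transcription, and capitals mark the UPR element, its core, the CCACG end or the full ER stress element on either strand.
PREB, chr2:27134637-27134836 (-): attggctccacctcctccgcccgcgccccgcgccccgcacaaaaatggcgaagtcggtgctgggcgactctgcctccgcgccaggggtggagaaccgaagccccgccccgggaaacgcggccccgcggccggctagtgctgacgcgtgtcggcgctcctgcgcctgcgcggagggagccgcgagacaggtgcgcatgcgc
SRP19, chr5:112861087-112861286 (+): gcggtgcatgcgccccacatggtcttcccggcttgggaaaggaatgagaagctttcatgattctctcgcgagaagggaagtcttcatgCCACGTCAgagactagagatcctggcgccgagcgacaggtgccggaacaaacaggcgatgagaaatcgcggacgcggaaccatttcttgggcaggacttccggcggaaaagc
LARP1B, chr4:128061112-128061311 (+): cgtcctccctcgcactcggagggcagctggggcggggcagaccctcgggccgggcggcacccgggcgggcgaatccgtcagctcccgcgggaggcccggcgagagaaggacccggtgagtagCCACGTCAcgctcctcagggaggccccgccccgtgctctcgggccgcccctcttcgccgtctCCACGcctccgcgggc
SMIM14, chr4:39638866-39639065 (-): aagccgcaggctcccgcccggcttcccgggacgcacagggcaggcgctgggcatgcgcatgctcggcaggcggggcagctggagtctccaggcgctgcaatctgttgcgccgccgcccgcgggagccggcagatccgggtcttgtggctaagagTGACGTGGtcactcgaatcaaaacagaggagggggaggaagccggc
PGM3, chr6:83193266-83193465 (-): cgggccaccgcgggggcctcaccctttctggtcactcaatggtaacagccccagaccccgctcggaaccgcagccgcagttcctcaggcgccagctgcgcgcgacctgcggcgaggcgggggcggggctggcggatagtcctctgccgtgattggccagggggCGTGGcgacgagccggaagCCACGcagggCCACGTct
SSR1, chr6:7313200-7313399 (-): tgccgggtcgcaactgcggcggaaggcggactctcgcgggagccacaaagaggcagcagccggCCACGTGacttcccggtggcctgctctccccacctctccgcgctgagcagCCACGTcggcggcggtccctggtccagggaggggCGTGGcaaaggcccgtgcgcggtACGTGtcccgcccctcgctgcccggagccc
SEC31A, chr4:82900570-82900769 (-): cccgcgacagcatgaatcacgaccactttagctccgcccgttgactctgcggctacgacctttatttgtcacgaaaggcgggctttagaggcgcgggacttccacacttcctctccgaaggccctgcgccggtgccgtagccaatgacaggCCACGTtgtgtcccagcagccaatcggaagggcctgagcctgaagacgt
DNAJB9, chr7:108569674-108569873 (+): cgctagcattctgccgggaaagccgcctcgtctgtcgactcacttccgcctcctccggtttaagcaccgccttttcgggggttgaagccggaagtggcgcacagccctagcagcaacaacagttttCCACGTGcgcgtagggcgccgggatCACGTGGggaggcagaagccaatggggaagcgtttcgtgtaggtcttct
HSPA5, chr9:125241344-125241543 (-): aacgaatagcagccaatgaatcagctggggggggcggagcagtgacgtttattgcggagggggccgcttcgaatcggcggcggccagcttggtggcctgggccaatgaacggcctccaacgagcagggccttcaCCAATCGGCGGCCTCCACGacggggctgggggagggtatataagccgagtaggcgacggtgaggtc

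PREB held none of these motifs in this window, while SSR1 had CCACG in 3 places and ACGTG in 4 counted over both strands. DNAJB9 had ACGTG in 4 as well, from 2 palindromic CACGTG sites. HSPA5 held a full ER stress element and no ACGTG.

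Another branch of the ER stress response was followed through 24 tested targets of PERK and ATF4. Of these, 0 were called in either direction by edgeR (3 below and 5 above at an unadjusted p under 0.05), which in a list of this size does not set it apart from the 1.86% below and 0.402% above over all genes, and DESeq2 called 0 below and 2 above, GDF15 and NIBAN1. The median response was 2.88 in control and 2.71 in knockdown cells (log2). DDIT3, the factor CHOP, was at 13.2, 14.2 and 10.6 CPM in control and 13.8, 13.4 and 17.1 CPM in knockdown cells with vehicle. It rose to 310.1, 307.1 and 302.1 CPM in control and to 331.1, 341.2 and 327.0 CPM in knockdown cells, where all 3 libraries lay above the control ones. The responses were 24.3-fold and 22.5-fold, with an interaction of -0.11 ± 0.12 (interval -0.37 to 0.15, edgeR adjusted p = 0.75). ATF4 had -0.06 (interval -0.18 to 0.06), ATF3 0.27 (-0.41 to 0.94) and CHAC1 0.16 (-0.12 to 0.45), none of them called.

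NIBAN1, TRIB3, GDF15 and JDP2 had terms of 0.94, 0.49, 0.50 and 0.34 with adjusted p of 0.0508, 0.0875, 0.0881 and 0.0746 in edgeR. With DESeq2 the adjusted p was 0.0212 for NIBAN1, 0.0504 for TRIB3, 0.0153 for GDF15 and 0.084 for JDP2. In an edgeR fit over all 18 libraries the adjusted p was 0.0244 for NIBAN1, 0.0375 for TRIB3, 0.0694 for GDF15 and 0.0431 for JDP2. Without knockdown vehicle replicate 3 the list had 3 calls above 0. Among 17 stress sensors and bZIP regulators ATF6 was below 0 (5.88%, beside 1.86% over all genes). It responded 3.71-fold against 2.73-fold (interaction -0.44 ± 0.10, edgeR adjusted p = 0.019) and lost the call in 6 of 12 fits without one library. ERN1, which encodes IRE1α, and EIF2AK3, which encodes PERK, had terms of -0.01 and 0.05.

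Many genes of amino acid supply are known ATF4 targets. Of 19 amino acid synthesis genes 1 was below 0 (5.26%, beside 1.86% over all genes), 8 were below at an unadjusted p under 0.05 and 0 above, DESeq2 called 3 below, and edgeR called 1 to 3 without one library. The called gene was ALDH1L2 (10.9-fold against 6.84-fold, edgeR adjusted p = 0.00817), while ASNS and CTH had terms of -0.31 and 0.08 and were not called. Of 24 tRNA synthetases 0 were called (6 below and 0 above at an unadjusted p under 0.05, 2 below with DESeq2). Of 13 reported IRE1α mRNA substrates 0 were called (4 below and 0 above at an unadjusted p under 0.05, 1 below with DESeq2). Of 24 apoptosis regulators 1 was below 0 (4.17%), BIRC2, an inhibitor of apoptosis (2.68-fold against 1.98-fold, edgeR adjusted p = 0.00275). None was above 0 (0 with DESeq2, 3 at an unadjusted p under 0.05).

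Above 0, the list with the most calls was that of immediate early and AP-1 genes, which growth factors and stress switch on within minutes. Of 26 tested, 5 were above 0, beside 0.402% over all genes, and 2 were below (7.69%, beside 1.86%). The median interaction was 0.26. JUNB, an AP-1 subunit at chr19:12902300-12904129, was at 55.0, 58.4 and 50.3 CPM in control and 57.2, 50.1 and 53.8 CPM in knockdown cells with vehicle. It fell to 13.7, 18.4 and 12.3 CPM in control and to 24.6, 21.4 and 24.4 CPM in knockdown cells, without overlap (0.271-fold against 0.438-fold, interaction 0.69 ± 0.16, edgeR adjusted p = 0.0224). IER3 fell from 65.8, 59.6 and 60.1 CPM to 31.2, 44.8 and 41.2 CPM in control cells, whereas in the knockdown it was at 65.9, 60.4 and 57.5 CPM before and 52.6, 63.0 and 66.5 CPM after (interaction 0.65 ± 0.15, edgeR adjusted p = 0.0272). In the knockdown the 2 treatments thus overlapped, which they did not in control cells.

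IER2 (0.45 ± 0.07, edgeR adjusted p = 0.00164), SRF (0.46 ± 0.11, edgeR adjusted p = 0.0312), the serum response factor, and the phosphatase DUSP6 (0.28) were the others above 0. The small MAF proteins MAFK (-0.78) and MAFG (-0.50) were below 0. The list's calls above 0 dropped to between 1 and 5 without one library, and JUNB, IER3 and SRF lost theirs in 7, 5 and 8 of these 12 fits. MAFG lost its call in 8 of them and MAFK in 0, and DUSP6 lost its call in some. JUN had a term of 1.42 on few counts (0.0742 to 2.15 CPM, interval -0.41 to 3.25) and was not called.

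Outside the lists, N6AMT1, a methyltransferase at chr21:30244513-30257693, had the largest term above 0 of the well expressed genes (mean log2 CPM of 3 or more). It stood at 16.6, 13.9 and 16.6 CPM in control and 14.6, 14.9 and 16.7 CPM in knockdown cells with vehicle. With tunicamycin it was at 6.96, 5.53 and 6.85 CPM in control and 18.4, 16.3 and 16.5 CPM in knockdown cells, so that the fall of control cells was not seen (0.411-fold against 1.11-fold, interaction 1.44 ± 0.17, edgeR adjusted p = 0.00011). HES1, a Notch target, fell to 48.4, 49.2 and 44.3 CPM in control and to 65.7, 66.3 and 66.5 CPM in knockdown cells (0.406-fold against 0.597-fold, interaction 0.56 ± 0.08, edgeR adjusted p = 0.000414). NRARP, another Notch target, was at 0.21-fold against 0.371-fold (0.82 ± 0.18, edgeR adjusted p = 0.0212, up to 0.0684 without one library), and SPRY4, a feedback inhibitor of growth factor signalling, at 0.511-fold against 0.753-fold (0.56 ± 0.10, edgeR adjusted p = 0.00482). TRIM14 (0.83), SMIM29 (0.75), CDC42EP3 (0.66), ZNF618 (0.61), RP11-1212A22.4 (0.61) and SIMC1 (0.59) completed the 15 largest terms above 0. Of these TRIM14 lost its call in 8, SMIM29 in 11, CDC42EP3 in 6, RP11-1212A22.4 in 2, SIMC1 in 10 and ZNF618 in 0 of 12 fits without one library.

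The well expressed genes with a larger rise included APC2 (2.54-fold against 4.16-fold), PTGS2, which encodes cyclooxygenase 2 (1.12-fold against 1.72-fold, edgeR adjusted p = 0.0017), and TSC22D3, the glucocorticoid-induced leucine zipper GILZ. TSC22D3 was at 17.4, 20.5 and 20.1 CPM in control and 15.5, 16.7 and 16.6 CPM in knockdown cells with vehicle. It rose to 123.3, 144.9 and 144.2 CPM and to 158.1, 177.3 and 184.6 CPM (7.1-fold against 10.6-fold, interaction 0.58 ± 0.12, edgeR adjusted p = 0.014, and 0.0528 without control vehicle replicate 2). The knockdown was thus lower with vehicle and higher with tunicamycin, without overlap in either case.

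The genes with a larger fall included BAG3, a cochaperone of HSP70, at 0.987-fold in control against 0.605-fold in knockdown cells (interaction -0.71 ± 0.09, edgeR adjusted p = 0.000228), and HSPE1, the mitochondrial chaperonin partner HSP10, at 0.443-fold against 0.321-fold (-0.46 ± 0.07, edgeR adjusted p = 0.00128). Both calls held in each fit without one library. Of 20 tested heat shock genes these 2 were below 0 (10%, beside 1.86% over all genes). The other 18 were not called, and the list's median was -0.03. The replication nuclease FEN1 (-0.38), the ribosomal protein RPL23 (-0.21) and COL1A2 (-0.29) also fell more in the knockdown. RPL23 was the only call among 57 ribosomal proteins (1.75%) and COL1A2 among 31 matrix genes (3.23%), near the 1.86% over all genes. At an unadjusted p under 0.05 in edgeR, 11 ribosomal proteins were below and 0 above, and 6 matrix genes below and 1 above. Of the 57 ribosomal terms 44 were negative. For RPL23 knockdown minus control was 0.17 with vehicle and -0.04 with tunicamycin, so that most of its interaction lay in the vehicle arm. RPL23 lost the call in 11 and COL1A2 in 3 of 12 fits without one library, and COL1A2 had an adjusted p of 0.23 in a fit of all 18 libraries in edgeR.

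The remaining lists had smaller shares below 0 than the ER lists with the most calls, and some still exceeded the 1.86% over all genes: 8.57% of proteasome subunits, 6.06% of cholesterol and fatty acid genes, 5.71% of autophagy genes and 4.88% of replication genes. Among 35 proteasome subunits 3 were below 0 (PSMA3, PSMB2 and PSMD14), with 5 in DESeq2 and 1 to 5 without one library. Of 33 cholesterol and fatty acid genes HMGCS1 and MSMO1 were below 0, of 35 autophagy genes WIPI1 (3.3-fold against 2-fold, edgeR adjusted p = 0.000739) and ATG13, and of 41 replication genes CDC6 and FEN1. LIPA was the only call among 40 lysosomal genes (2.5%, near the share over all genes). PCYT1A was the only call among 24 phospholipid genes (4.17%), and both were below 0. PSMA3 lost its call in 2, PSMD14 in 9, ATG13 in 8, LIPA in 10 and PCYT1A in 5 of 12 fits without one library. No member was called among 22 NRF2 targets, 12 MYC network genes, 24 G1 regulators, 36 mitosis genes, 13 secreted cytokines and 12 genes of MHC class I and peptide loading, where edgeR gave 5, 1, 1, 2, 0 and 2 below and 1, 1, 1, 2, 1 and 1 above at an unadjusted p under 0.05. DESeq2 called 1 NRF2 target below 0 and none of the others. The median interactions of these lists, in the same order, were -0.10, 0.00, 0.09, 0.01, 0.19 and -0.21. In the list of MHC class I and peptide loading 11 of 12 terms were negative, and among secreted cytokines 4 of 13 were.

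The 6 CARM1 knockout libraries did not enter the fit and give the response of another genotype for the same genes. The median response of the genes with a smaller rise was 0.58 in CARM1 knockout cells, beside 1.16 in control and 0.58 in XBP1 knockdown cells (log2). For the genes with a smaller fall it was -0.41 beside -0.83 and -0.31. In the other classes it lay nearer to control: -0.10 beside -0.06 in control and -0.59 in knockdown cells for a larger fall, and 0.34 beside 0.24 and 0.75 for a larger rise. Over all tested genes the CARM1 knockout median was -0.03. The genes were chosen with the control and knockdown libraries in the contrast, so that these medians are descriptions. The CARM1 knockout responses came from a separate fit of all 18 libraries. No CARM1 knockout median is given for genes that rose without a called interaction. Whether the values above are particular to the called genes was thus not tested. Whether single genes are reduced to the same extent in both modified lines was not tested either.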

How the data were processed

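The authors sequenced mRNA of A1847 cells from its 3 prime end (single reads of 75 nt), used bowtie2 for alignment to hg19 and quantified genes with RSEM. The values are expected counts per Ensembl gene, deposited by the authors as whole numbers without normalization. The methods give an RSEM version that differs from the 1.2.3 of the submitters' processing notes, and the Ensembl release is not given in the sources used here. All columns were matched to samples by their labels (0 left unmapped). Of 57736 genes, 55501 could be given a symbol and a GRCh37 position, and 938 of 941 listed gene names were found in the table.

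In R 4.3.3 with edgeR 4.0.16 and limma 3.58.1, genes were filtered with filterByExpr (minimum count 10) over the 12 libraries, TMM factors were applied, and one quasi-likelihood fit over the 4 groups gave the interaction, the mean response and the other contrasts by F tests. P-values were adjusted with the Benjamini-Hochberg method over all tested genes, with a threshold of 0.05. The SE of a term is its absolute log2 value over the root of its F statistic, and intervals cover 95%. CPM values are counts of tested genes scaled by TMM-adjusted library totals, and a prior count of 2 went into logs. The counting floor of a group was 3 counts or fewer in each of its libraries.

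Members, lists and tests were chosen with earlier results of these data known. Named genes were XBP1, CARM1, HSPA5 and DNAJB9, the 15 lowest and 15 highest called interactions with a mean log2 CPM of 3 or more, and up to 4 called members per list and direction. Other members were named to account for a list and were chosen after their values were seen.

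Between replicates, chi-square per degree of freedom was 2.37 to 6.89, above counting error alone. Nothing in the labels says that replicates were separate cultures, so that p-values measure the spread between these libraries, which may be technical. With 3 libraries against 3 an exact permutation test cannot go below 0.1, and none was run. Alternatives were DESeq2 1.42.0 and its size factors, other filters, a fit of all 18 libraries, a fit with a replicate block, a stricter FDR (1%), a minimum fold (1.5) and the omission of each library. Splicing and the other data of the series were not analysed here.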

Additional observations from a re-analysis of the deposited data

Results flagged for a closer look

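The response to tunicamycin differed between genotypes, by the test of the interaction itself, in 292 genes below 0 and 63 above 0.

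In 19 of these genes the vehicle and tunicamycin libraries did not overlap in either genotype and the change went in opposite directions. In 14 of them the gene rose in control cells and fell in the knockdown, with interactions (log2) of -1.1 for KDELR3, -0.88 for BTG3, -0.75 for FAM114A1, -0.62 for TCEAL9, -0.56 for ANKRD36B, -0.54 for PNMA8A, -0.5 for CHPF, -0.48 for SPART, -0.43 for MAP1A, -0.42 for PSMB2, -0.37 for PPP3CB, -0.33 for RBM26, -0.3 for PGP and -0.26 for NDUFA1. In 5 the gene fell in control cells and rose in the knockdown, with 1.79 for EHD2, 0.46 for ELK4, 0.42 for PDGFRA, 0.39 for PPP2R2A and 0.37 for DVL2. EHD2 was low, with a mean of 0.904 CPM in knockdown cells with vehicle. For KDELR3 the highest control vehicle library and the lowest control tunicamycin library were equal at the digits printed above. How many of all tested genes separate in this way is not given, so that the count of 19 has no background beside it. Groups held 3 libraries, too few for a test of single outlying libraries.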

How the results depend on the processing

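None of the 91 genes named by the rules above changed direction in the alternatives that gave it an adjusted p. The direction of other members named in the text is not given for the alternatives. When only genes with at least 10 counts in every library were tested, 302 were below 0. They included 284 of the 292 genes. DESeq2's size factors gave 282 and 74 genes below and above 0, and the filter over all 18 libraries 290 and 63. DESeq2 gave 354 below and 101 above, with 62 smaller falls. Without a filter, 27821 genes were tested and 479 were below and 279 above, with 149 smaller falls, 57 larger rises and 65 larger falls. All 18 libraries in one fit gave 119 above, 65 smaller falls and 31 larger rises. At an FDR of 1% there were 154 below and 12 above, in classes of 137 smaller rises, 9 smaller falls, 1 larger rise and 9 larger falls. A fold of at least 1.5 left 114 and 16, in classes of 97, 10, 4 and 11. Over the fits that leave out one library, the ranges were 181 to 341 below, 24 to 106 above, 154 to 264 smaller rises, 13 to 66 smaller falls, 5 to 25 larger rises and 14 to 44 larger falls. The causes of these shifts were not tested. Of 87 called named genes, 31 lost the call in at least one of these 12 fits, from 5 genes without control vehicle replicate 3 to 26 without control tunicamycin replicate 3.

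Replicate numbers were shared across groups. Over 18 same-numbered pairs the correlation of deviations from the group means was -0.193 to 0.124, 2 were over 0.1, and 5 correlated best with their own number, so that the numbers were not taken as pairs. With a replicate block the calls were 236 below and 37 above, with 24 smaller falls and 10 larger rises, and 13 named genes lost their call. A missing call does not show an equal response: the median SE of the interaction was 0.173, and the smallest called term was 0.21.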
